A study of Mus musculus with 18 samples.

Results

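Chemokines are small secreted proteins that draw immune cells along a concentration gradient, and they act through G protein-coupled receptors on the responding cells. The CC and CXC families are named for the spacing of their first conserved cysteines, and their receptors carry the matching prefix (Ccr, Cxcr). Some ligands, such as Cxcl12 and Cxcl14, are made constitutively in many tissues, whereas others, such as Ccl2, Cxcl1 and Cxcl10, are induced through factors such as NF-kB, STAT and AP-1 in glia, vessels and leukocytes. In the retina, microglia and infiltrating myeloid cells are known sources and targets of these signals.

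The genes described here were the 52 protein-coding genes, of 21951 in the GENCODE M21 annotation, whose symbols start with Ccl, Cxcl, Ccr or Cxcr and a digit. They comprised 23 CC ligands, 12 CXC ligands, 11 CC receptors and 6 CXC receptors. Chromatin accessibility had been measured by ATAC-seq, in which a transposase cuts open DNA, in 18 libraries of whole retina from wild-type (WT) mice. The 6 groups of 3 libraries were, at each of 3 and 18 months (3mo and 18mo), retinas given a raised intraocular pressure (IOP) of 30 mmHg for 1 hour, the contralateral control retinas of eyes left without pressure, and retinas with no treatment on their labels (untreated). Pressure and contralateral retinas were labelled as collected on day 2, whereas the study's text gives a later day. A treatment text shared by all samples mentions dasatinib and vehicle injections, and no label assigns a library to either. The labels give neither strain nor sex, the study's text names C57BL/6 mice for other experiments, and its methods describe the retina of each eye as the starting tissue.

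What the deposited files hold is a list of peaks per library, 36011 to 66160 in length and 911837 in all, at a q-value of at most 0.05. A locus was the gene body plus the 10 kb before its start, and a promoter the 1 kb before and the first 100 bp after any annotated start. Both were called open in a library when a listed peak overlapped them. Peaks were also merged across libraries into 73567 consensus regions, each supported by 2 or more libraries, of which 42 lay in chemokine loci. A region without a peak may be accessible below the threshold, and because the tissue is bulk retina, fewer cells with an open region and less opening per cell cannot be told apart. As a check of the tissue, the promoters of 6 of 6 rod markers carried a peak in every library, compared with 0 of 7 markers of blood-derived leukocytes. Of the microglial markers, P2ry12, Csf1r, Aif1, Trem2 and C1qa had no promoter peak in any library, and of the leukocyte list 6 had none. Libraries differed in shortest peak (79 to 89 bp in untreated retinas, 114 to 157 bp in the others), so that untreated and contralateral retinas also differ in how peaks were listed.

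The sequences that carry the results are shown first, from the GRCm38.p6 genome (mm10) and written along the strand of the gene. They are the own-promoter regions of Ccl25, Ccl27a, Cxcl14, Ccl9 and Cxcr4, which were called in the most libraries among genes present in the RefSeq promoter table (38 of 52), and an exonic region of Ccl28. The Ccr9 promoter region was left out because it lies at another gene in RefSeq. Capitals mark matches on either strand to the motifs searched, which were the NF-kB consensus, STAT (TTCNNNGAA), AP-1 (TGANTCA), ETS (GAGGAAGT), Crx and Otx2 (TAATCC) and the CTCF core consensus. Windows were 300 bases around the summit, or 270 bases before to 30 bases past the start for Ccl9, and 30 bases where the summit lies in untranslated sequence.
Ccl25 promoter summit, chr8:4325148-4325177, plus strand: agaagcgacgctcattggttggcatggctg
Ccl27a promoter region, chr4:41773512-41773811, minus strand: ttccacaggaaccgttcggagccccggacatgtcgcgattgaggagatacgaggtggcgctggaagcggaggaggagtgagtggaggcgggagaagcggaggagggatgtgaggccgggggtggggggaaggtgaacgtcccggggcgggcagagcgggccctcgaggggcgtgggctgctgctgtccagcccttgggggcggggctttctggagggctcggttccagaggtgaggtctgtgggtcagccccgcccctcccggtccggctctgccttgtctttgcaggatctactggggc
Cxcl14 promoter, AP-1 match, chr13:56296462-56296491, minus strand: agaaatctcagTGAGTCAccgagtggttct
Ccl9 promoter, chr11:83578607-83578906, minus strand: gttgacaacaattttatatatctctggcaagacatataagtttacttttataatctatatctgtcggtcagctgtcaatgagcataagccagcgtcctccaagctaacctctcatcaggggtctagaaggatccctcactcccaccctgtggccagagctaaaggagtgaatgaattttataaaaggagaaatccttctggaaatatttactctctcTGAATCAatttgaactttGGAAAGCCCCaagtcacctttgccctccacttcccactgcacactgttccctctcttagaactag
Cxcr4 promoter region, chr1:128592373-128592672, minus strand: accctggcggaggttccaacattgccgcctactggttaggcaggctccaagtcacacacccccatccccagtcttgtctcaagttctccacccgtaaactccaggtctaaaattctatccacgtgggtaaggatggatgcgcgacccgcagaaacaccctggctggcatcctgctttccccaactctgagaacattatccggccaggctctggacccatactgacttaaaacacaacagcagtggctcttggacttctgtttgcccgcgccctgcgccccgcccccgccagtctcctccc
Ccl28 exonic region, AP-1 match, chr13:119652957-119652986, plus strand: tgttttctgagtTGATTCActttggagaag
The 300 bases around the Ccl25 summit were 72.0% G and C with 46 CpG dinucleotides, and those of Ccl27a 68.7% with 22. The Ccl27a summit lies 435 bp past the gene's nearest start, so its window is downstream of the promoter as defined above. In comparison, the Ccl9 summit window was 50.3% G and C with 1 CpG. That of Cxcl14, called in 11 libraries, was 64.0% with 26 CpG, more CpG than Ccl27a. For Cxcr4, called in 6 libraries, it was 58.0% with 13. Whether base composition goes with the number of calls was not tested. The printed Ccl9 window held an AP-1 match (TGAATCA, chr11:83578683-83578689) 47 bp and an NF-kB match (GGAAAGCCCC, chr11:83578662-83578671) 26 bp upstream of the start, and both fell inside the called region. The 300 bases around the Ccl9 summit held no match to any motif searched. Over 21938 gene starts, 7.11% of windows of this length held an AP-1 match and 4.9% an NF-kB match. Among the 32 chemokine regions of genes in the promoter table, 300-base summit windows held an NF-kB match in 4 (12.5%; 3.72% of 73449 consensus regions), at Cxcl1, Cxcl10, Ccl1 and an intron of Ccl28. AP-1 was matched in 4 of these 32 (9.1% of consensus regions), STAT in 2 (7.07%), Crx and Otx2 in 7 (17.7%), the CTCF core in 3 (6.51%) and ETS in 0 (1.89%). These matches describe letters and not occupied sites.

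Most chemokine promoters carried no listed peak in these libraries. A peak in every library was found in 7 of 52 loci (13.5%), compared with 63.6% of all protein-coding loci, and no peak in any library in 23 loci (44.2%), compared with 22%. Chemokine loci were shorter than protein-coding loci in general (median 14.4 kb against 27.4 kb). Promoter windows, which have the same width around every start, gave the same order. Of 52 members, 2 promoters (3.85%) were open in every library and 41 (78.8%) in none, against 51.7% and 35.8% of all protein-coding genes. The median member was open at its locus in 1 library and at its promoter in 0, while the median protein-coding gene was open in 18 at both.

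**Figure D1:**
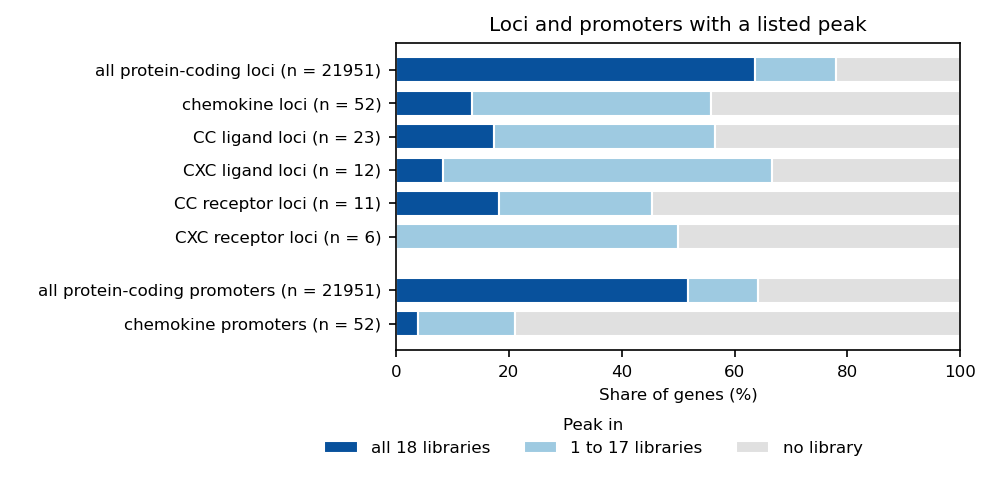
Share of genes (x axis, %) with a listed peak in all 18 libraries, in 1 to 17, or in none, for loci (upper 6 bars) and promoters (lower 2 bars). The dark bar is 13.5% of chemokine loci and 63.6% of all loci, and 3.85% against 51.7% for promoters.

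The 23 loci without a peak in any library held many of the inflammatory ligands and leukocyte receptors. Among CC ligands they were Ccl3, Ccl4, Ccl6, Ccl7, Ccl8, Ccl11, Ccl12, Ccl20, Ccl22 and Ccl26. Among CXC ligands they were the neutrophil attractants Cxcl2 and Cxcl5, the interferon-induced Cxcl9 and the B cell attractant Cxcl13. Among receptors they included the monocyte receptor Ccr2, the neutrophil receptors Cxcr1 and Cxcr2, and Ccr1, Ccr1l1, Ccr3, Ccr8 and Cxcr3. A further 5 loci, Ccl21a, Ccl21b, Ccl24, Cxcl3 and Cxcl15, had a peak in a single library. Peak fold over local background in these single libraries was 3.2 to 4.53, and the peak at Cxcl3 and Cxcl15 is the same peak of a 3mo contralateral library.

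Chemokine genes lie partly in clusters, and loci without a peak were found in clusters and outside them. In the 5 clusters of 3 or more members (neighbours no more than 200 kb apart), 14 of 26 loci had no peak in any library, compared with 9 of 26 outside. In the receptor cluster on chromosome 9, the loci of Ccr1, Ccr1l1, Ccr2 and Ccr3 had no peak in any library. In the same cluster, Ccr9 was open in every library and Cxcr6 in 5. In the chromosome 11 cluster from Ccl2 to Ccl1, 4 of 6 loci had none, and in the neighbouring Ccl5 to Ccl4 cluster 3 of 5. The difference between clustered and dispersed members was not tested.

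Of the CC ligands, Ccl25, Ccl27a, Ccl27b and Ccl28 were open in every library. Ccl25, a ligand of Ccr9 known from thymus and gut, had the strongest promoter region (chr8:4324597-4325596). Its fold over local background ranged from 15.7 to 22.3 over 18 libraries with a median of 18.6, and its median rank by q-value was percentile 99.4 of its library. This region also covers the promoter of Elavl1, which encodes a widely expressed RNA-binding protein and is transcribed in the opposite direction. Ccl27a, a ligand of the skin-homing receptor Ccr10, had a region at chr4:41773111-41774459 with a median fold of 10.7 (8.61 to 15.2), at percentile 87.5. Its near-copy Ccl27b carried no peak at its GENCODE promoter in any library. Ccl27b was open through a region at −4041 bp from its GENCODE start, with a median fold of 7.68. That gene model is 755 bp long. The RefSeq gene is 5446 bp long and starts at chr4:42650563, so the region (chr4:42650861-42651702) lies inside it, past the RefSeq start. Ccl27a and Ccl27b are near-identical genes, so reads could be assigned to either.

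Ccl28, a ligand of Ccr3 and Ccr10 made by mucosal epithelium, had the most regions of any member (5) and none at its promoter. Intronic regions 8144 bp and 13944 bp past its start were called in 18 of 18 libraries, with median folds of 19.3 (10.4 to 23.3) and 13.7 (5.79 to 22.8). Among the 18 lists, the first of them ranked between percentiles 73.1 and 93.8. The other intronic regions, 2311 bp and 16832 bp past the start, were called in 5 and 8 libraries. Ccl1, a ligand of Ccr8, had 4 regions, of which 3 lie in a GENCODE gene model of 129034 bp and outside the RefSeq gene of 3147 bp. Ccl17, a ligand of Ccr4 and Ccr8, had regions at −8651 bp and −10005 bp from its start, called in 9 and 3 libraries. Ccl19, a ligand of Ccr7, met the edge of a region at −10211 bp that was called in 11 libraries, while listed peaks reached into the locus in 3. With RefSeq extents, 6 loci instead of 7 were open in every library, 21 in some and 25 in none.

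Of the CXC ligands, Cxcl12, which retains leukocytes and guides progenitors through Cxcr4, was open at its locus in every library. Its main region lay at −1520 bp from the start (chr6:117166804-117167292) and was called in 17 of 18 libraries, with a median fold of 8.21, while the promoter itself was called in 3. Cxcl14, an epithelial and neuronal ligand, had its promoter (chr13:56296053-56296748) called in 11 libraries, at folds of 4.04 to 6.89 and percentiles 2.6 to 49.4. Cxcl16, a membrane-bound ligand of Cxcr6, was covered in 15 libraries by a region 684 bp past its start that also lies at the promoter of Zmynd15. Cxcl17, a mucosal ligand, was covered by an exonic region in 16 libraries, with a median fold of 5.32. The induced ligands were rarely called at the promoter, with Cxcl1 in 2 libraries, Cxcl3 in 1 and Cxcl10 in 1. Cxcl10, an interferon-induced ligand of Cxcr3, also had a region at −4950 bp called in 3 libraries.

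Of the receptors, Ccr9 and Ccr10 were open in every library, and none of their regions lay at the start of the RefSeq gene. The regions of Ccr9 lie in a GENCODE model of 105892 bp that starts at Slc6a20a, against 16247 bp in RefSeq, and its strongest region (median fold 18.6) sits at the promoter of Lztfl1. The Ccr9 promoter region at Slc6a20a was called in 18 libraries, although peaks reached the promoter window itself in 10. Ccr10 carried an exonic region in 18 libraries with a median fold of 3.77 and no promoter peak. Ccr4 and Ccr7, receptors of T cells and dendritic cells, were each called in introns in 13 libraries, at folds of 3.87 to 6.7 and 3.95 to 10.3. The region of Cxcr6, the receptor of Cxcl16, lay at −10094 bp and was called in 12 libraries, with peaks inside the locus in 5. Cxcr5, the receptor of Cxcl13, was called in 8 libraries in an intron of its long GENCODE model and in 3 upstream of it. Ccr6, the receptor of Ccl20, was called in 2 libraries at −8257 bp. Cxcr4 had a peak at its own RefSeq promoter in 6 libraries. At the RefSeq start of Ccr9 a peak was listed in 1 library, 3mo untreated replicate 4.

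Across the 42 regions, 14 were intronic, 11 upstream, 10 at the gene's own promoter, 5 exonic and 2 at the promoter of another gene. They were called less uniformly than other regions, with 8 of 42 (19.0%) in all 18 libraries compared with 33.6% of all consensus regions. The median chemokine region was called in 10 libraries (12 for all) and was 391.5 bp wide (405 bp for all). Density was 0.372 regions per 10 kb of locus, against 0.485 over all protein-coding loci.

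**Figure D2:**
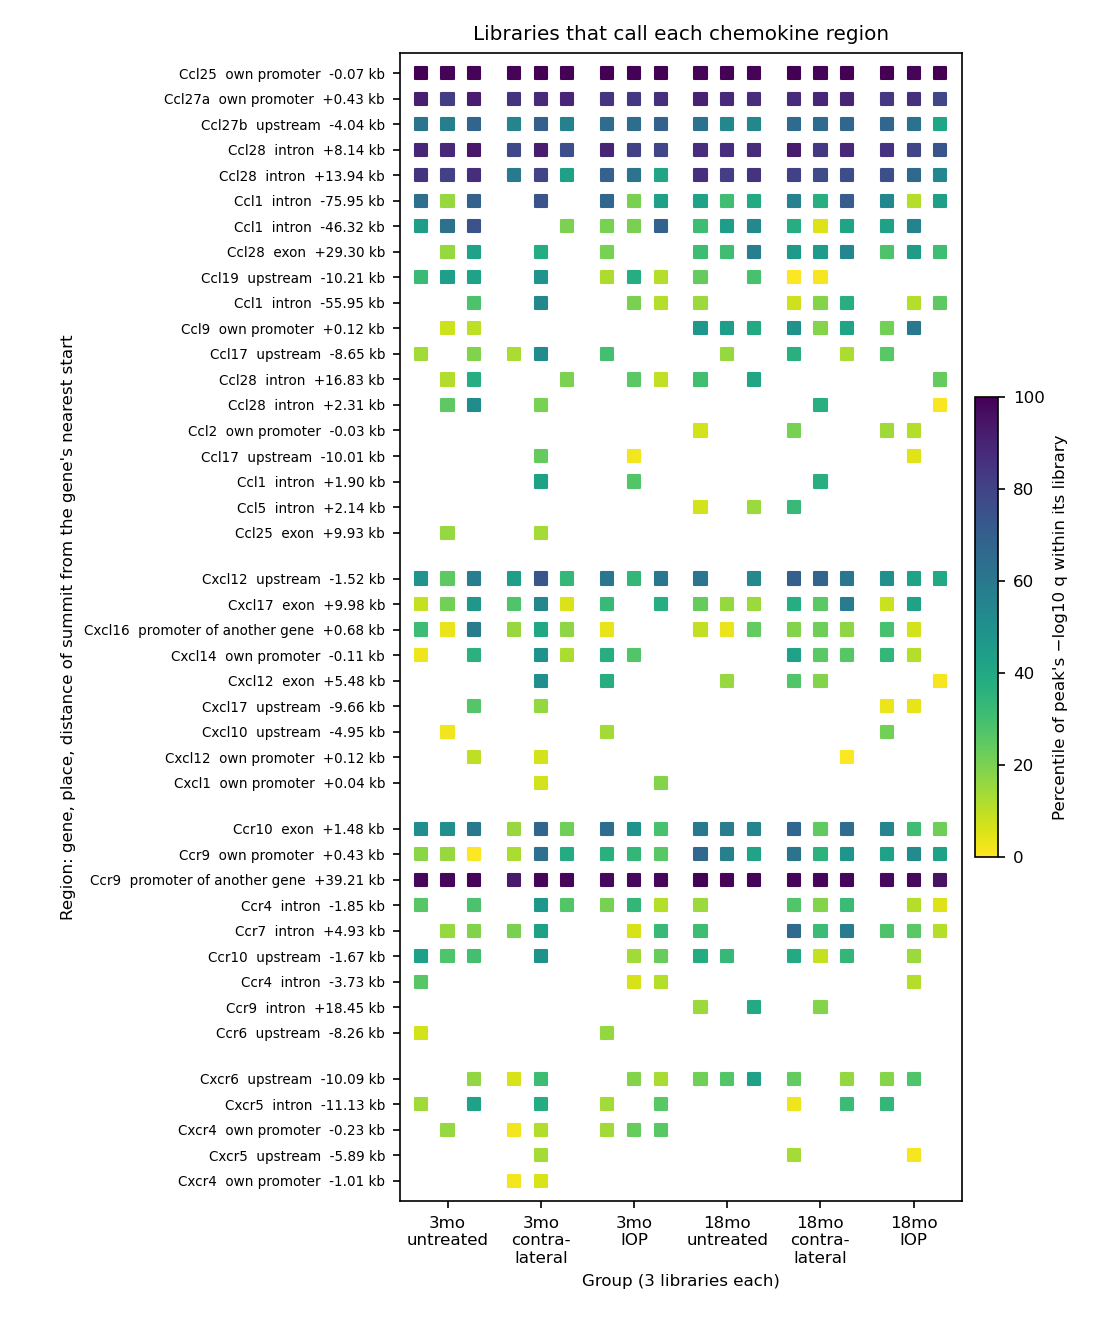
Each row is 1 of the 42 chemokine regions, labelled with the gene, its place and the distance of its summit from the nearest start of that gene, and each column is a library, 3 per group. A square marks a call and its colour the percentile of the peak's −log10 q among all peaks of its library. The rows filled across all 18 columns are the 8 regions called in every library, and the Ccl9 row is filled mainly at 18 months and the Cxcr4 promoter row at 3 months.

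How many chemokine regions a library called moved with the length of its list. The shortest lists, of 36011, 39202 and 41499 peaks, called 17, 16 and 15 of 42 regions, and the longest, of 66114 and 66160 peaks, called 28 and 33. These were 40%, 38% and 36% of chemokine regions for the shortest and 67% and 79% for the longest. Of all consensus regions, the same lists called 47%, 51% and 54%, and 74% and 79%, so calls rose with list length in both sets. In every group the mean lay between 21 and 25.7 regions, with the widest spread in 3mo contralateral retinas (21.3 ± 10.1, SD, n = 3). Open loci numbered 10 to 19 and open promoters 3 to 7 per library.

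**Figure D3:**
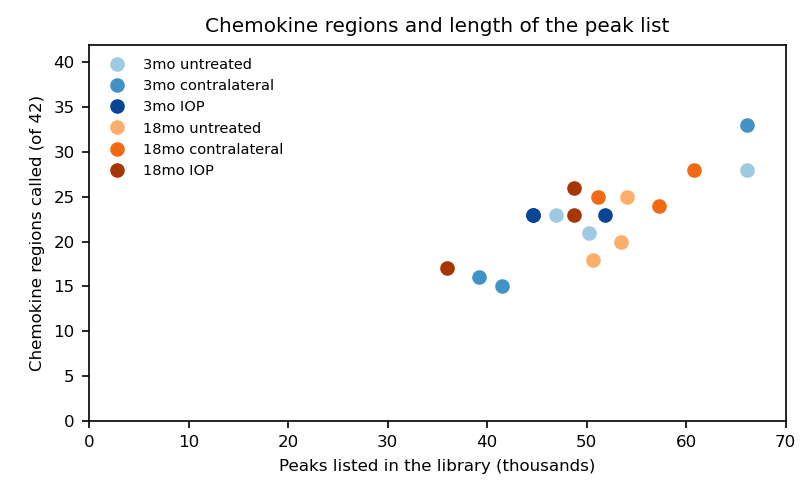
Chemokine regions called (y axis, of 42) against the number of peaks listed (x axis) for each of 18 libraries, coloured by group. Groups overlap on both axes, and the libraries with the longest lists have 28 and 33 regions.

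To examine natural aging, 18mo controls (contralateral and untreated, n = 6) were compared with 3mo controls (n = 6). Ccl9, a myeloid attractant and ligand of Ccr1, had the smallest p among chemokine regions. Its region (chr11:83578390-83578758) was called in 6 of 6 18mo controls and in 2 of 6 3mo controls. The −log10 q of its peak was 9.58, 10.6 and 9.09 in the 18mo untreated libraries and 11.1, 4.55 and 9.19 in the contralateral ones. In 3mo retinas, peaks of 3.15 and 3.49 were listed in 2 untreated libraries and none in the contralateral ones. By the two-sided exact test (Fisher) p was 0.0606, which is the smallest value that 8 calls in 12 libraries allow. No chemokine region passed Benjamini-Hochberg adjustment (0 of 5 whose number of calls could reach 0.05; 0% of 9868 such consensus regions), and 0 had an unadjusted p under 0.05, against 3.19% of consensus regions more often and 0.385% less often called at 18 months. At the level of loci, 0 of 24 tested had an adjusted or unadjusted p under 0.05 (exact permutation test of regions called; over 16622 loci 0% adjusted, 1.63% higher and 0.156% lower unadjusted). The count of 0 changed with the lists. At a −log10 q of at least 5, 1 region was called more often at 18 months in an unadjusted test (Ccl9, exact p = 0.0152), and 2 loci had an unadjusted p under 0.05. With lists of equal length, 2 regions (Ccl9 and the Ccl28 exonic region, exact p = 0.0152 each) and 1 locus did. Without 3mo untreated replicate 5 or 6, 1 region and 1 locus did, and 0 regions passed adjustment in these settings. The smallest p that this design allows is 0.00217, and misses at these sizes do not show that the ages were alike.

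A test over all 9 libraries per age, stratified by the 3 treatment arms and added after the data were seen, gave unadjusted p under 0.05 for 3 of 15 testable regions, 2 called more often and 1 less often at 18 months. Across all 14602 testable regions these shares were 5.36% and 1.79%, and 0% passed adjustment. The study raised pressure unilaterally, so IOP and contralateral libraries may come from the same animals. The test counted each library as separate, and its p-values do not allow for shared animals. Ccl9 was called in 8 of 9 18mo libraries and 2 of 9 3mo libraries (exact p = 0.01; adjusted p = 0.4125). At 18 months the IOP libraries listed peaks of −log10 q 5.14 and 14.6, and the library without a call, 18mo IOP replicate 3, has the shortest list of all. The lowest 18mo peak exceeded the highest 3mo peak. With lists cut to 36011 peaks each, Ccl9 still differed by 6 libraries (exact p = 0.01), and with each library left out p ranged from 0.0025 to 0.02. When peaks had to cover 50% of the region, the difference was 2 libraries (exact p = 0.4).

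The Ccl28 region in the untranslated end of its last exon (chr13:119652857-119653344, 29295 bp past the start) was called in 9 of 9 18mo libraries. At 3 months it was called in 4 of 9, namely 2 untreated, 1 contralateral and 1 IOP library (exact p = 0.04; adjusted p = 0.5595). Its −log10 q was 4.14, 7.87, 7.56 and 4.85 in those 4 libraries and 6.08 to 16.5 at 18 months, so the ages overlapped. With equal lists the difference grew to 8 libraries (exact p = 0.001), and with each library left out p ranged from 0.01 to 0.08.

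Cxcr4, the receptor of Cxcl12, went the other way, with its promoter region (chr1:128592253-128592691) called in 6 of 9 3mo libraries and 0 of 9 18mo libraries (exact p = 0.01; adjusted p = 0.4125). The calls came from 1 untreated, 2 contralateral and 3 IOP libraries at 3 months. Their −log10 q was 2.3 to 5.2, at percentiles 1.68 to 26.1 of the library, so each was among the weaker peaks of its list. With lists of equal length the difference fell to 2 libraries (exact p = 0.4), and it was also 2 at a −log10 q of at least 5 and with 50% of the region covered. Another Cxcr4 region, at −1010 bp, was called in 2 contralateral libraries at 3 months.

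Ccl2, the main monocyte attractant, had its promoter (chr11:82035443-82035623) called in 4 of 9 18mo libraries and 0 of 9 at 3 months, at −log10 q of 3.1, 5.07, 4.24 and 3.73 (exact p = 0.1). The difference was 0 with equal lists. An intronic region of Ccl5 was called in 3 of 9 18mo libraries (2 untreated and 1 contralateral) and 0 of 9 at 3 months, and an intronic region of Ccr9 likewise in 3 and 0 (exact p = 0.2 for each). By contrast, Cxcl14 was called in 6 of 9 3mo and 5 of 9 18mo libraries, and Cxcl12 at its promoter in 2 and 1. Over loci, 1 of 24 was higher and 1 lower at 18 months in unadjusted tests over 9 libraries each, against 2.39% and 0.823% of 16639 loci, and 0 (0% of loci) passed adjustment.

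**Figure D4:**
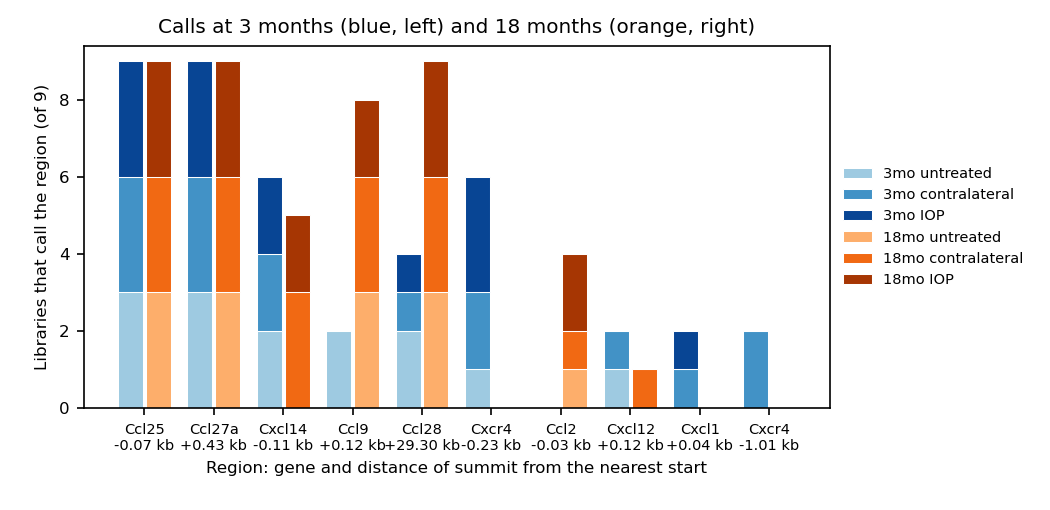
Libraries of 9 (y axis) that call each of 10 regions at 3 months (left bar, blue) and 18 months (right bar, orange), stacked by treatment arm. Ccl25 and Ccl27a reach 9 at both ages, Ccl9 and the Ccl28 exonic region stand at 2 and 4 against 8 and 9, and Cxcr4 at 6 against 0.

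**Figure D5:**
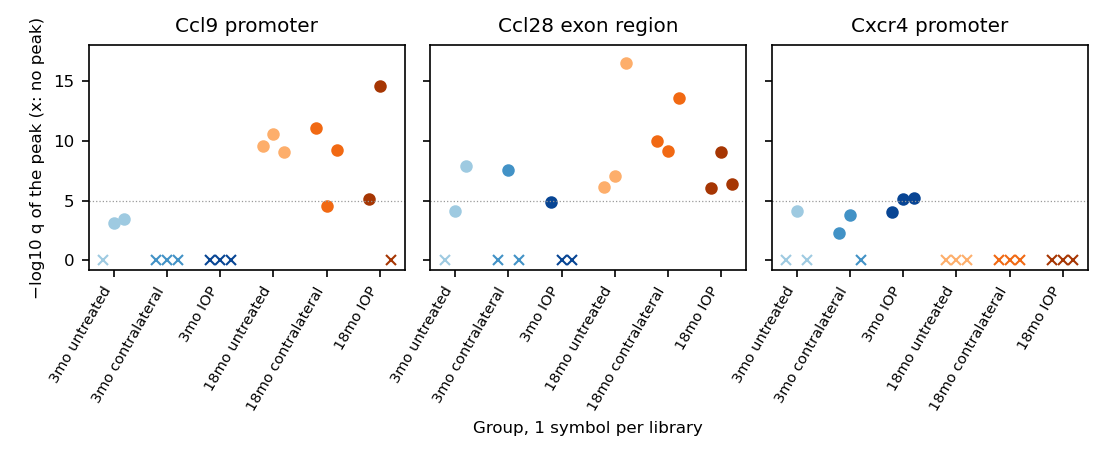
−log10 q (y axis) of the peak at Ccl9, the Ccl28 exonic region and Cxcr4 in each library, by group; crosses mark libraries without a peak and the dotted line a −log10 q of 5. The 18mo Ccl9 peaks reach 4.55 to 14.6, above both 3mo peaks, while the Cxcr4 peaks lie between 2.3 and 5.2. Values come from each library's own list and are not scaled between libraries.

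Next, IOP retinas were compared with contralateral controls (n = 3 each at each age). No chemokine region passed the test, with 0 of 4 testable regions past adjustment (0% of 5572 over the genome) and 0 at an unadjusted p under 0.05 (1.62% of regions more often and 3.43% less often called upon IOP). The smallest unadjusted p of any chemokine region was 0.2 in the exact test stratified by age, for Cxcl16 and an intronic region of Ccr4. Neither is among the 4 testable regions, and 0.2 is the smallest value that their numbers of calls allow. The Cxcl16 region was called in 6 of 6 contralateral libraries and in 3 of 6 upon IOP, and the Ccr4 region, at −3728 bp from its nearest start, in 0 and 3. No region in a chemokine locus was called in all 3 libraries of one treatment and none of the other, at 3 months (0 of 42; 0.217% of all regions for IOP and 0.241% for contralateral) or at 18 months (0 of 42; 0.239% and 2.23%). Over loci, 0 of 24 passed with or without adjustment (0% of 16585 adjusted, 0.127% higher and 0.977% lower unadjusted). At 3 months, IOP retinas called 23, 23 and 23 regions and contralateral retinas 16, 33 and 15. At 18 months they called 23, 26 and 17 against 28, 25 and 24, so the groups overlapped in chemokine regions at both ages. Of all consensus regions, IOP retinas called 63%, 58% and 58% at 3 months, against 51%, 79% and 54% in contralateral retinas. At 18 months these shares were 60%, 63% and 47% against 74%, 66% and 71%.

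At the promoters of the induced ligands and of Cxcr4, calls overlapped between arms. Ccl2 was called in 2 of 3 18mo IOP libraries and 1 of 3 of both control groups, Cxcl1 in 1 of 3 IOP and 1 of 3 contralateral libraries at 3 months, and Cxcr4 in 3 of 3 IOP, 2 of 3 contralateral and 1 of 3 untreated libraries at 3 months. Whether the IOP difference itself changed with age was tested for 24 loci by an exact permutation test, and the smallest unadjusted p was 0.08, for Ccl19 and Ccl1.

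Untreated and contralateral controls, which differ both in treatment of the animal and in peak width, were compared over both ages (n = 6 each). No chemokine region passed (0 of 5 testable; 0% of 9868 regions), and 0 had an unadjusted p under 0.05, against 5.89% of regions more often and 5.55% less often called in untreated retinas. Cxcl14 was the most uneven promoter, called in 2 of 3 untreated and 2 of 3 contralateral libraries at 3 months and in 0 of 3 and 3 of 3 at 18 months (exact p = 0.242 over both ages).

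Other genes of the chemokine system ranged from open in every library to open in none. Among factors that regulate chemokine genes, the promoters of Rela, Nfkb1, Nfkbia, Irf1, Hif1a and Cebpb carried a peak in every library. Of 20 signalling genes 11 did, and the 5 without a promoter peak in any library were Pik3cg, Rgs1, Rac2, Dock2 and Vav1, which are known mainly from blood cells. Over all protein-coding promoters, 51.7% carried a peak in every library and 35.8% in none. Whether any of these lists differs from those shares was not tested. Among other chemokines, the promoter of the neuronal ligand Cx3cl1 was open in 18 libraries and those of Xcl1, Pf4 and Ppbp in 0. Its microglial receptor Cx3cr1 was open at the locus in 18 libraries and at the promoter in 0. Of the other and atypical receptors, the scavenger Ackr3 had a promoter peak in 15 libraries and 6 of 7 in none. No region of these 4 lists passed adjustment for age or IOP. In unadjusted tests over regions, 1 region of the signalling list was called less often upon IOP, against the 3.43% of all regions given above, and 0 regions of the 4 lists had a p under 0.05 between 18mo and 3mo controls. In the test over 9 libraries per age, 1 region of the regulator list was called less often at 18 months (background 1.79%). Over loci, the smallest p for age in these lists of 4, 7, 20 and 7 genes was that of Nfkb1, a subunit of NF-kappaB. Its unadjusted exact permutation p was 0.00866, with a mean of 1.17 regions called per library in 18mo controls and 2.83 in 3mo controls. Across all 16622 loci, 0.156% were lower at 18 months at an unadjusted p under 0.05, and 0% passed adjustment.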

How the data were processed

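Bulk mouse retina was profiled in 18 ATAC-seq libraries. Per the labels, the authors aligned with STAR 2.7.8a and called peaks with MACS2 on mm10, and bedtools 2.29.2, HOMER and edgeR are also named. Per the deposited lists, each library has its own peaks with a score, a fold (ratio over local background) and the −log10 of p and q at the summit, all made by the authors. Trimming, duplicate removal and read shifting are not given in the sources used here, and peak lists hold no read depth, so the depth behind a call is unknown. Preparation text shared by all samples also describes crosslinking and immunoprecipitation, and the libraries were taken as ATAC-seq after their titles.

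The study's read-count model could not be used on peak lists. Calls per region were therefore tested, by Fisher's exact test or an exact conditional test stratified by age or arm (two-sided), with Benjamini-Hochberg adjustment over all regions whose p could fall under 0.05. Loci were tested by exact permutation of the mean number of regions called. Tests were run in Python 3.11.15 with scipy 1.17.1 and checked on simulated calls. By rule, genes with values were those with a promoter call, an unadjusted p under 0.05, a locus open in all 18 libraries, or the most regions; the other members with values (such as Ccr4, Ccr7, Cxcl17 and Ccl5) were added after their values were seen. Replicate numbers of the labels were used. The numbers were not taken to pair IOP with contralateral libraries. The members and gene lists were chosen with earlier results of these data known. The study calls its ATAC-seq samples biological replicates, and the labels do not tie libraries to animals. The alternatives tried were a stricter q, lists of equal length, overlap by 50%, other extents of locus and promoter, merged regions without the 2-library rule, and leaving out each library. Age was also tested stratified by kind of control, and age and IOP by class of shortest peak, with 0 chemokine regions past adjustment. Shortest peaks were 152, 116 and 152 bp in 3mo contralateral libraries and 114, 149 and 114 bp in 18mo ones. In IOP libraries they were 119, 157 and 152 bp, and 122, 148 and 148 bp. Some genes of these lists are not reported here.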

Additional observations from a re-analysis of the deposited data

How the results depend on the processing

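Peak lists record calls and not reads, so that a weak region and a closed region cannot be told apart, and the number of peaks per library limits each count. At a −log10 q of at least 5, promoters open in some libraries numbered 5 instead of 9. With the same number of peaks in each library (36011) they numbered 4, and loci open in some libraries 14 instead of 22. When peaks had to cover 50% of a region, 3 loci instead of 7 and 1 promoter instead of 2 were open in every library, 1 region was exclusive to contralateral retinas at 18mo, and 3 regions passed adjustment between untreated and contralateral controls, all called less often in untreated retinas. The cause was not tested. With 10 kb on both sides of the gene, 14 loci were open in every library and 1 region was exclusive to contralateral retinas at 18mo. With promoters of 2.5 kb on both sides, 5 were open in every library and 15 in some. Leaving out each library in turn gave 0 to 2 exclusive regions at 3mo (2 without contralateral replicate 2, contralateral replicate 3 or IOP replicate 1) and 0 to 1 at 18mo (1 without contralateral replicate 3, IOP replicate 2 or IOP replicate 3). The adjusted tests of age, IOP and kind of control called 0 chemokine regions without any single library.

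Deviations of same-numbered libraries had correlations of −0.068 to 0.098 between IOP and contralateral libraries and −0.139 to 0.0093 between ages. The numbers were not taken as pairs. With 3 libraries per group, these correlations cannot show whether same-numbered libraries come from the same animal. With a replicate block, 0 chemokine regions and 0 loci passed for age or IOP, but no chemokine region was called differently in enough pairs to reach 0.05, so that for regions this count was fixed by the design (6 pairs allow a smallest p of 0.0312). In the other alternatives, 137 values of the main counts and tests kept their side of the threshold or stayed within 1.5 times. Among counts of unadjusted calls and differences of single regions, 485 did so, 15 moved, and 71 came to an unadjusted p under 0.05, most of them in the added test over 9 libraries per age.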
